A study of Mus musculus with 12 samples.

Results

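Regulatory T cells of the tumours were taken as the cells that the authors' deposited annotation of the CD45 libraries places in the class T and the subtype Foxp3+ Cd4+ T. After likely doublets were left out there were 1268 such cells, of 9826 T cells and 53363 cells in the 6 CD45 libraries. They came as 195 cells from clone E, 211 from EM1, 211 from EM2, 363 from EM3, 196 from M and 92 from parental 4T1. The mouse mammary carcinoma line 4T1 and 5 clones of it had been grown in culture and implanted orthotopically into female BALB/c mice aged 9 to 11 weeks, with mammary fat pad as the tissue and no further treatment named in the labels. Each tumour gave a library named Total and one named CD45, after separation with CD45 magnetic beads, so each group is 1 clone, or the parental line, and 1 library per fraction. The labels do not state the epithelial or mesenchymal state of each clone, and how many mice were pooled is not given in the sources used here. With 1 tumour per group no test between tumours was possible, and the intervals given below (95%, exact) cover counting error only.

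Regulatory T cells are CD4 T cells that restrain other immune cells. The transcription factor Foxp3 fixes their identity, a high level of the interleukin-2 receptor alpha chain Il2ra lets them take up interleukin-2, and the receptor Ctla4 removes the costimulatory ligands CD80 and CD86 from antigen-presenting cells. Within tumours and other tissues they often carry an effector phenotype with the interleukin-33 receptor Il1rl1, Klrg1 and the chemokine receptor Ccr8.

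Before any comparison, the label was checked against its markers and the libraries against each other. At least 1 Foxp3 UMI (a transcript counted once by its molecular identifier) was present in 73.0 to 87.7% of the cells per tumour. The share was 1.79 to 13.2% in Cd44+ Cd4+ T cells, at most 2.99% in Cd44- Cd4+ T cells and at most 0.869% in macrophages, whose median depth of 5138 to 7664 UMIs per cell was above the 987 to 1584 UMIs of the Foxp3+ cells. All 9 T cell genes of the marker list, among them Cd3e, Trac and Cd4, were present in each tumour, the lowest being Lck at 332 CPM (CPM, UMIs scaled to the summed UMIs of the Foxp3+ cells of a tumour). Gata1, Il2 and Il21 were at 0 in all 6 tumours. Myeloid transcripts were present too: the 12 macrophage markers summed to 3099 to 6305 CPM, which is 5.85 to 12.8% of their level in the non-T cells of the same library, with none of the 12 at 0, and the 8 granulocyte markers to 1510 to 3319 CPM. B and plasma cell markers summed to 545 CPM in EM1 and to at most 47.9 CPM elsewhere. NK cell markers summed to 211 to 394 CPM with 2 to 5 of 7 genes at 0, dendritic cell markers to 16.9 to 48.5 CPM with 2 to 6 of 8 at 0, and tumour and stromal markers to 158 to 293 CPM with 2 to 7 of 9 at 0. Whole cell barcodes were shared by 12 of 66 pairs of libraries, all of different tumours with the same probe barcode, and numbered 84 to 189 a pair. The gel-bead part of the barcode was shared by 15.1 to 16.7% of the smaller library between E and EM3, by 12.2 to 14.0% between EM1 and EM2, and by 0.686 to 1.91% between all other pairs of tumours. Between the Total and the CD45 library of the same tumour it was shared by 12.7 to 19.1%. The labels do not state the captures. By these barcodes E was captured together with EM3, and EM1 with EM2, while M and parental 4T1 stood apart, so that in comparisons of EM1, EM2, M or parental 4T1 with E the tumour and the capture cannot be told apart. UMI totals of the Foxp3+ cells ran from 123648 in parental 4T1 to 662324 in EM3.

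Regulatory T cells made up the largest share of the CD4 T cells in EM3 and M. In EM3 they were 43.1% of the annotated CD4 T cells (interval 39.7 to 46.5) and in M 37.9% (33.7 to 42.2). E followed with 20.7% (18.2 to 23.5), then EM2 with 15.2% (13.4 to 17.2), parental 4T1 with 12.5% (10.2 to 15.1) and EM1 with 10.2% (8.91 to 11.6). The intervals of EM3 and M lay above those of the other 4 tumours and overlapped each other. EM3 exceeded E, captured with it, by 22.3 percentage points (18.0 to 26.6), and M exceeded E by 17.2 points (12.2 to 22.2). The size of the difference between M and E depended on how the cells were recognised. Without the annotated cells that lacked a Foxp3 UMI, it was 9.47 points (4.84 to 14.2). With every cell thinned to 1000 UMIs, which left 830, 1000, 545, 723, 368 and 377 CD4 T cells in E, EM1, EM2, EM3, M and parental 4T1, a Foxp3 UMI was found in 20.2% of them in E, 25% in M and 36.2% in EM3. M then exceeded E by 4.76 points (-0.46 to 10.2) and EM3 exceeded E by 16 points (11.4 to 20.5). In the Total libraries the shares with a Foxp3 UMI were 21.1, 16.2, 25.8, 38.1, 25.5 and 22.1% in E, EM1, EM2, EM3, M and parental 4T1. There the difference from E was 4.43 points (-1.55 to 10.7) for M and 17.0 points (10.2 to 23.9) for EM3. The interval of the difference from E thus lay above 0 in each of these readings for EM3. For M it lay above 0 by the annotation, with or without the cells that lacked a Foxp3 UMI, but not in the other 2.

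**Figure D1:**
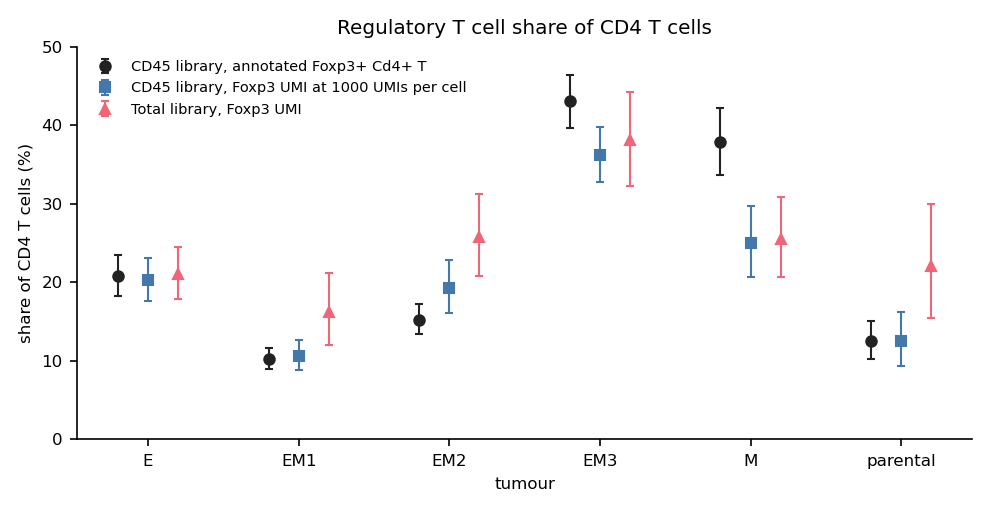
Share of CD4 T cells (%, vertical axis) that are regulatory T cells in each tumour, by the deposited annotation of the CD45 library (circles), by a Foxp3 UMI in CD45 cells thinned to 1000 UMIs (squares) and by a Foxp3 UMI in the Total library (triangles). Bars are 95% Clopper-Pearson intervals. EM3 is highest in all 3 readings (43.1, 36.2 and 38.1%), while M is at 37.9% by annotation and at 25 and 25.5% in the others.

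The order of the tumours depended on which cells the Foxp3+ cells were counted against. Cd44- Cd4+ T cells, the resting pool, numbered 41 in M and 59 in EM3, against 404 in E and 535 to 1435 in the other 3 tumours. Per Cd44+ Cd4+ T cell there were 0.572, 0.493, 0.681, 0.862, 0.700 and 0.836 Foxp3+ cells in E, EM1, EM2, EM3, M and parental 4T1. The interval of M (0.580 to 0.843) overlapped that of E (0.477 to 0.684), and the interval of EM3 (0.747 to 0.995) did not. Per CD8 T cell the numbers were 0.259, 0.268, 0.637, 0.454, 1.53 and 2.63 in the same order, with 800 CD8 T cells found in EM3, 128 in M and 35 in parental 4T1. Parental 4T1, low by its share of CD4 T cells, was thus highest per CD8 T cell and second to EM3 per Cd44+ Cd4+ T cell. Its intervals were wide for both. Per CD8 T cell it ran from 1.76 to 4.00 and overlapped that of M (1.22 to 1.93), and per Cd44+ Cd4+ T cell from 0.627 to 1.11. Of all CD45 cells, Foxp3+ cells were 1.39% in parental 4T1, 1.85% in E, 2.27% in EM1, 2.37% in EM2, 2.64% in M and 3.43% in EM3. The part that these other cells play in the share of CD4 T cells was not tested.

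Foxp3, the gene that names the annotated subtype, is given as a description, since its level follows in part from how the cells were chosen. It was at 2212, 2328, 2293, 2038, 2052 and 2111 CPM in E, EM1, EM2, EM3, M and parental 4T1, and the intervals of the highest and lowest tumour overlapped. Ikzf2, which encodes the Ikaros-family factor Helios, stood at 1359, 1241, 1399, 1442, 1570 and 1181 CPM in the same order, with the intervals of M and parental 4T1 apart. Ikzf2 was nearly equal in M and parental 4T1 in the Total libraries, at 1057 and 1059 CPM in cells with a Foxp3 UMI. Il2ra was at 2814, 2992, 2507, 2956, 3483 and 2677 CPM, highest in M (interval 3262 to 3715) with no overlap with any other tumour. Tnfrsf4, the costimulatory receptor OX40, ran from 1043 CPM in parental 4T1 to 1424 in EM2.

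Ctla4 divided the tumours into a higher and a lower set in the CD45 libraries. Its level was 1469 CPM in M (1326 to 1622) and 1529 in parental 4T1 (1318 to 1763), against 2732, 2531, 3055 and 2370 CPM in E, EM1, EM2 and EM3. The intervals of M and parental 4T1 overlapped each other and no other. In the Total libraries, however, Ctla4 in CD4 T cells with a Foxp3 UMI was at 2190 CPM in E and 2154 in M, with 1029 in parental 4T1, so that of the lower levels only that of parental 4T1 was seen in both libraries. Icos, another costimulatory receptor of the CD28 family, went from 2647 CPM in M to 3640 in EM2. Tnfrsf9, the activation receptor 4-1BB, was carried by 91.0 to 96.7% of cells and stood at 5113, 5171, 5595, 5524, 6899 and 6195 CPM in E, EM1, EM2, EM3, M and parental 4T1, with the interval of M above those of the other 4 clones. Pdcd1, encoding PD-1, was lowest in EM1 at 826 CPM (719 to 944) and between 1241 and 1645 CPM in the other 5 tumours.

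Genes of the tissue effector phenotype were present in every tumour. Il1rl1 ran from 1779 CPM in EM1 to 2268 in EM3, and Gata3, a transcription factor of type 2 immunity also used by tissue regulatory T cells, from 760 in E to 1188 in EM3. Klrg1, an inhibitory receptor of differentiated lymphocytes, was at 746, 630, 751, 1030, 1145 and 679 CPM in E, EM1, EM2, EM3, M and parental 4T1. EM3 and M were the 2 highest, their intervals overlapped each other and none of the other 4, and 49.6 and 48.5% of their cells had a Klrg1 UMI against 31.8 to 41.5% elsewhere. Ccr8 was at 525 to 614 CPM in 5 tumours and 887 in EM2 (779 to 1006). EM2 was not the highest for Ccr8 in the Total libraries, at 393 CPM against 726 in M. Tbx21, the lineage factor of type 1 helper cells, did not exceed 46.1 CPM.

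Among the suppressive effectors, Gzmb and Penk were carried by a minority of cells. Lrrc32 and Itgb8, which present and activate latent TGF-beta, were at 315 to 653 and 202 to 398 CPM, both lowest in parental 4T1. In the Total libraries Itgb8 was again lowest there (123 against 149 to 242 CPM), whereas Lrrc32 was highest there, at 476 CPM against 217 to 398 in the 5 clones. Gzmb, a cytotoxic protease, ran from 625 to 819 CPM with overlapping intervals at the extremes, but only 23.6 to 31.1% of cells had a UMI and the top 10% of cells held 66.3 to 85.9% of its UMIs. Penk, encoding the opioid precursor proenkephalin, was at 2119, 1736, 1075, 1762, 2915 and 2920 CPM in E, EM1, EM2, EM3, M and parental 4T1. M and parental 4T1 were highest and EM2 lowest, although 76.1 to 94.8% of the Penk UMIs came from the top 10% of cells. M again had the highest Penk level in the Total libraries, 3659 CPM, whereas parental 4T1 had the lowest, 338 CPM. The inhibitory receptor Lag3 was at 105 to 234 CPM in the 5 clones and at 16.2 in parental 4T1, from 2 UMIs in 1 cell (interval 1.96 to 58.4). No Lag3 UMI was counted in the 30 cells with a Foxp3 UMI of its Total library. In CD4 T cells without a Foxp3 UMI, Lag3 was lowest in parental 4T1 too, at 19.4 CPM against 126 to 296 in the 5 clones (Total libraries). The low level was thus not limited to cells with Foxp3. The cytokine gene Il10 stayed at or below 80.7 CPM in all 6 tumours, and Il12a did not exceed 1.51 CPM.

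**Figure D2:**
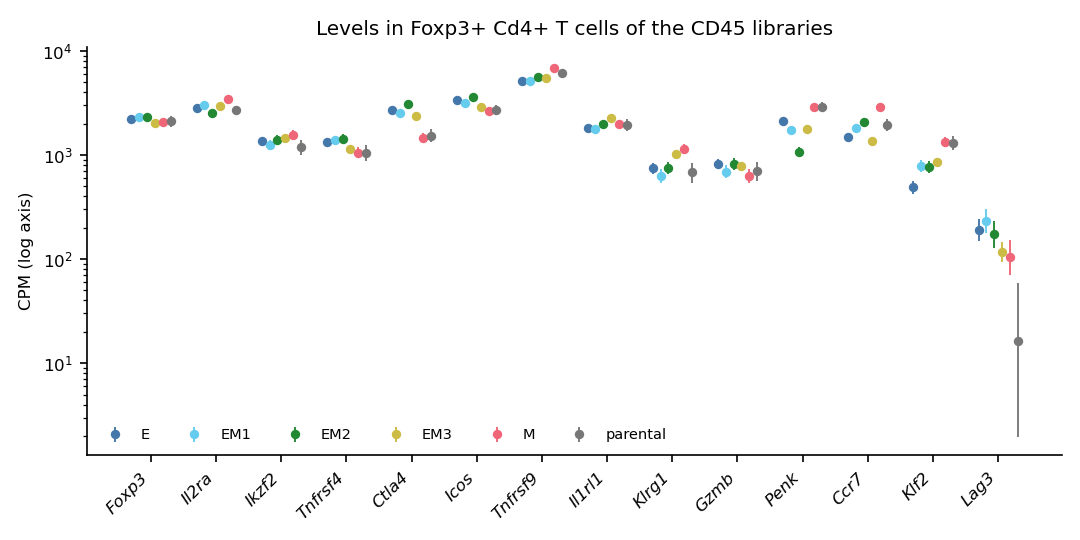
Level of 14 genes (CPM, log axis) in the Foxp3+ Cd4+ T cells of each CD45 library, 1 point per tumour, with 95% Poisson intervals of the summed UMIs. Foxp3 spans 2038 to 2328 CPM, whereas Ctla4 is lowest and Klf2 highest in M and parental 4T1, and Lag3 is at 16.2 CPM in parental 4T1.

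Several genes of recirculation and differentiation were highest in M in the CD45 libraries. Ccr7, the receptor that guides cells to lymph nodes, was at 1472, 1817, 2065, 1356, 2907 and 1941 CPM in E, EM1, EM2, EM3, M and parental 4T1. Cxcr4, a receptor for CXCL12, was at 3769 CPM in M against 2265 to 2944 in the other 5 tumours, and Id2, an inhibitor of E-protein transcription factors, at 2892 CPM against 1195 to 2353. For all 3 genes the interval of M overlapped no other. In the Total libraries M was again highest for Cxcr4 (2202 against 1084 to 1643 CPM) and Id2 (2190 against 992 to 1505 CPM) but not for Ccr7, at 1517 CPM against 1858 in E. The transcription factor Klf2, which promotes egress from tissue, was at 490, 784, 769, 853, 1344 and 1310 CPM in E, EM1, EM2, EM3, M and parental 4T1. The log2 ratio of M over E for Klf2 was 1.44 (1.18 to 1.70) in the CD45 libraries. It was -0.60 in the Total libraries, with 508 CPM in M and 773 in E, so the direction for Klf2 rests on the CD45 libraries.

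Against the other annotated T subtypes the Foxp3+ cells stood apart by genes well beyond Foxp3 (a description, since the annotation was made from the same expression values). With the rule of at least 100 CPM in 3 tumours, 3040 genes were compared with Cd44+ Cd4+ T cells, the activated conventional cells. Of these, 139 genes (4.57%) were at least 2-fold higher by the median over tumours and higher in all 6, and 102 (3.36%) were lower in the same way. At any fold, 455 genes (15%) were higher in all 6 tumours and 565 (18.6%) lower. All 11 identity genes at that minimum were higher in 6 of 6 tumours, with a median log2 ratio of 1.23 against -0.05 for all genes. Of the tissue and effector genes 10 of 14 were higher in all 6, of the suppressive effectors 7 of 13, and of the naive and central memory genes 7 of 11 were lower in all 6. Each of these 3 lists also had 1 gene that went the other way in all 6. The identity list holds Foxp3, which names the subtype. Itgae, at 18.9 to 92.7 CPM in Cd44+ Cd4+ T cells, and Itgb8, at 0 to 81.9, met the minimum through the Foxp3+ cells, where a higher level follows. Tcf7, at 18.8 to 64.7 CPM in the Foxp3+ cells, met it through the Cd44+ Cd4+ T cells, where a lower level follows. These counts by list are thus a description and are no result to set against all genes.

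Of the genes higher than in Cd44+ Cd4+ T cells in all 6 tumours, Klrg1 had the highest ratio, with a median log2 ratio of 4.76 (4.47 to 5.63 over tumours). Klrg1 stood at 630 to 1145 CPM in the Foxp3+ cells, at 5.29 to 28.3 in Cd44+ Cd4+ T cells and at no more than 80.9 in both CD8 subtypes, without overlap. Gzmb followed with 4.53 (2.58 to 5.00). For Gzmb, however, the Foxp3+ level of 625 to 819 CPM overlapped those of Gzmb+ Cd8+ T cells (588 to 2184 CPM) and of dividing T cells (445 to 1149 CPM), and of Trdc+ DN T cells. Rln3, encoding a relaxin-family peptide, had a median log2 ratio of 4.05, Itgb8 of 3.73, Dgat2, an enzyme of triglyceride synthesis, of 3.64, and Foxp3 itself of 3.36. Itgae, the integrin CD103, had 2.82, Ikzf2 2.75, Il2ra 2.49 and the chemokine receptor Ccr2 2.34. Laptm4b, Tmem158, Ky, Bmyc, Ncmap, Pcyt1a, Hopx, Lamc1, Cmtm7 and Gpr55 completed the 20 genes with the highest medians.

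Il2ra and Ikzf2 separated the cells from conventional CD4 T cells but were not limited to them. Il2ra was at 340 to 1032 CPM in Cd44+ Cd4+ T cells and at 1783 to 6338 in Trdc+ DN T cells, a subtype of 103 cells in all, where it exceeded the Foxp3+ level in 4 of 6 tumours. Ikzf2 was at 404 to 670 CPM in Gzmb+ Cd8+ T cells, below the Foxp3+ level in all 6 tumours. Nrp1, often used as a marker of thymus-derived regulatory T cells, was at 14.1 to 44.2 CPM and lay below Cd44+ Cd4+ T cells in 5 of 6 tumours. Bcl2, the survival factor, was at 3.77 to 33.1 CPM in the Foxp3+ cells and at 155 to 216 in Cd44+ Cd4+ T cells, below every other T subtype in all 6 tumours. Its relative Bcl2l1, by contrast, was present at 501 to 723 CPM.

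Of the 6 genes of other CD4 T helper programmes at the minimum, 5 were lower than in Cd44+ Cd4+ T cells in all 6 tumours (18.6% of all genes), with a median log2 ratio of -3.44 for the list. Il13, Cd40lg and Tnfsf11 did not exceed 8.09, 18.8 and 50.7 CPM in the Foxp3+ cells. They met the minimum through the Cd44+ Cd4+ T cells, and in the tumours where they did a lower level follows. The count and the median are thus a description and are no result to set against all genes. Among the 10 genes with the lowest medians, Il13, a type 2 cytokine, had a median log2 ratio of -4.87 and the chemokine gene Ccl1 of -3.94. The ligands Tnfsf8 (CD30 ligand), Cd40lg and Tnfsf11 (RANKL) had -3.73, -3.15 and -2.98, and the receptor subunit Il12rb2 had -2.99. Tcf7, a factor of naive and memory-like T cells, was at 18.8 to 64.7 CPM in the Foxp3+ cells against 277 to 510 in Cd44+ Cd4+ T cells, with no overlap. Tnfrsf19, Ramp3 and St8sia1 were the other 3 of the 10 lowest.

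**Figure D3:**
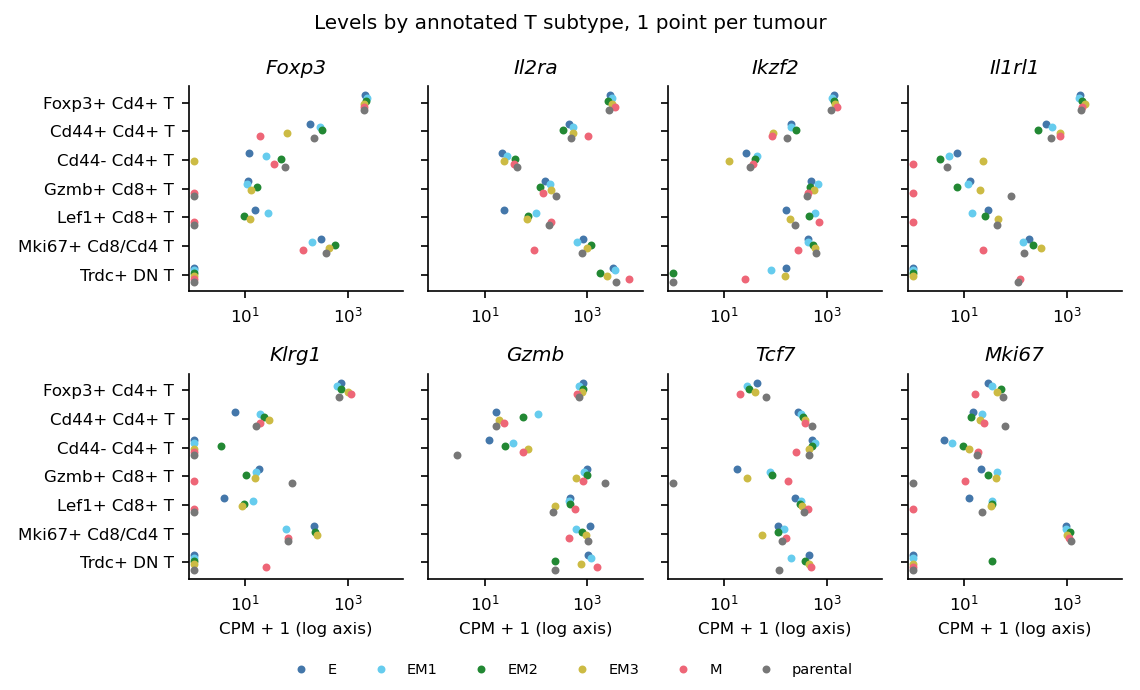
Level of 8 genes (CPM + 1, log axis) in each annotated T subtype of the CD45 libraries, 1 point per tumour coloured by tumour. Klrg1 is at 630 to 1145 CPM in the Foxp3+ Cd4+ T cells and at no more than 250.7 CPM elsewhere, while Gzmb overlaps the CD8 and dividing cells and Il2ra in Trdc+ DN T cells overlaps the Foxp3+ level.

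Cells with Foxp3 were also found in the annotated subtype of dividing T cells. In the Foxp3+ subtype Mki67, a proliferation marker, was at 15.1 to 56.6 CPM, with a UMI in 1.02 to 6.52% of cells, against 973 to 1229 in the Mki67+ Cd8/Cd4 subtype. Of the 394 cells of that subtype, 88 carried a Foxp3 UMI, 31 of 88 in EM2, 24 of 139 in EM1, 15 of 58 in EM3, 13 of 84 in E, 4 of 13 in parental 4T1 and 1 of 12 in M. The share was highest in EM2 (35.2%, interval 25.3 to 46.1) and did not overlap that of E (15.5%, 8.51 to 25.01) or EM1 (17.3%, 11.4 to 24.6). Depth differs here, since dividing cells had medians of 3279 to 5748 UMIs. With the cells thinned to 1000 UMIs the share was 25% in EM2 (16.4 to 35.4), 11.9% in E (5.86 to 20.8) and 12.6% in EM1 (7.51 to 19.4), and the intervals overlapped. The 88 cells carried Il2ra at 2426 CPM against 219 in the other 306 dividing cells, Ctla4 at 2273 against 571, Klrg1 at 549 against 20.9 and Cd8a at 22.6 against 542. Of all T cells with a Foxp3 UMI, 0.667% in M, 3.88% in parental 4T1, 4.26% in EM3, 5.46% in E, 8.19% in EM1 and 11.7% in EM2 lay in the dividing subtype.

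Within the Foxp3+ cells, those with a Klrg1 UMI differed from those without. This split was chosen after the values were seen and carries no test. It gave 81, 67, 83, 180, 95 and 33 cells with Klrg1 in E, EM1, EM2, EM3, M and parental 4T1, and in each tumour these cells had the higher median UMI count. Il2ra was at 3202 to 4448 CPM in cells with Klrg1 and at 1880 to 2488 in cells without, higher in 6 of 6 tumours with no overlap. Gzmb (722 to 1396 against 299 to 709 CPM), Ccr2, Il1rl1, Tnfrsf9 and Penk were likewise higher in 6 of 6. Klf2, S1pr1, the receptor for exit from tissue, Satb1, a chromatin organiser, and Bcl2 were lower in 6 of 6. Bcl2 lay near the floor, at 0 to 21.2 CPM with Klrg1 and 8.28 to 54.9 without. Only selected genes were looked at in this split, so no share over all genes stands beside these counts. Foxp3 and Ikzf2 differed little, with median log2 ratios of 0.13 and 0.03.

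The Total libraries gave a comparison that did not use the annotation of the subtype. CD4 T cells there were cells of the authors' class T/NK with a UMI of Cd4 and of Cd3d, Cd3e, Cd3g or Trac and none of Cd8a or Cd8b1, and the 452 cells with a Foxp3 UMI (129, 43, 74, 101, 75 and 30 in E, EM1, EM2, EM3, M and parental 4T1) were set against the 1408 without, within each tumour. Foxp3 itself was left out. Of 5851 genes, 625 (10.7%) rose and 553 (9.45%) fell in cells with a Foxp3 UMI at an adjusted p of 0.05 (edgeR quasi-likelihood test with the tumour as a block, Benjamini-Hochberg adjustment, n = 6 tumours). Without the tumour block the counts were 407 and 292. Cells with a Foxp3 UMI were deeper in 5 of 6 tumours, with medians of 1463 to 2260 against 1054 to 1849 UMIs, and with both arms thinned to 1500 UMIs 1706 genes were tested, of which 194 rose and 169 fell. The labels do not say that the tumours came from separate mice. The p-values measure how far the difference between the arms within a tumour varied over these 6 tumours.

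Genes of the identity and tissue lists were among the 15 risen genes with the lowest p. Il2ra was at 2008, 2713, 2197, 3036, 4315 and 2441 CPM in cells with a Foxp3 UMI and at 206, 182, 322, 398, 578 and 149 CPM in cells without, in the order E, EM1, EM2, EM3, M and parental 4T1. The arms did not overlap, and the log2 fold change was 3.25 ± 0.15 (SE; adjusted p = 1.5e-17, edgeR quasi-likelihood test with Benjamini-Hochberg adjustment). Ikzf2 rose by 3.07 ± 0.15 on the log2 scale (718 to 1104 against 73.7 to 164 CPM). Klrg1 rose by 3.93 ± 0.22, Lrrc32 by 2.47 ± 0.16, Gzmb by 2.39 ± 0.18, Il1rl1 by 2.12 ± 0.16 and Ctla4 by 1.95 ± 0.13. Cmtm7, Bmyc, the histone gene Hist1h2ae, Dgat2, Stx11, Maf, Rln3 and Sh3rf1 were the other 8 of the 15 risen genes with the lowest p.

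By list, 10 of 11 identity genes tested rose and 1, Nrp1, fell, with a median log2 fold change of 1.62 for the list. Over all genes tested 10.7% rose and 9.45% fell, with a median near 0. The call for Nrp1 (-0.97 ± 0.32) was lost without EM1, EM2, EM3 or M, with DESeq2 and with no need for a Cd4 UMI. Of the 16 tissue and effector genes 13 rose, while the decoy receptor Il1r2 and the repressor Bach2 fell, Il1r2 no longer without EM3, without the tumour block, with DESeq2 or with no need for a Cd4 UMI. Among suppressive effectors 9 of 13 rose and Nt5e, the ectoenzyme CD73, fell by 0.79 ± 0.19. Costimulatory TNF receptor genes rose in 6 of 9 cases, and the ligand gene Cd40lg fell by 3.53 ± 0.35. At 1500 UMIs per cell, where 11.4% of all genes tested rose, 8 of 8 identity genes, 10 of 13 tissue genes and 3 of 8 suppressive effectors rose, and without the tumour block, where 6.96% of all genes rose, 5 of the 13 suppressive effectors did. Of the tissue genes, Tigit was at 0 to 37.5 CPM without and 49.0 to 84.5 with a Foxp3 UMI, and Prdm1 at 17.5 to 38.1 and 45.6 to 109. Both met the low-count filter mainly through the cells with a Foxp3 UMI, which favours the call of a rise. The count of risen tissue genes is thus in part a description. These lists had been assembled with earlier results of these data known.

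Of the 11 genes tested on the chemokine receptor list, which also holds S1pr1, 6 rose and 2, Cxcr6 and S1pr1, fell, against 10.7 and 9.45% of all genes. Ccr6, the receptor for CCL20, rose by 3.55 ± 0.42, though its level in cells with a Foxp3 UMI was only 39.0 to 138 CPM. At 0 to 24.6 CPM in cells without one, Ccr6 met the low-count filter through the cells with one. For such a gene only a rise could be called, so the count of risen genes on this list is in part a description. Ccr2 rose by 2.34 ± 0.20, Ccr8 by 1.08 ± 0.16 and Cxcr4 by 0.72 ± 0.13. Cxcr6, a receptor of resident T cells, fell by 2.41 ± 0.27 but was higher in 1 of 6 tumours.

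Naive and helper genes fell. Tnfsf8 was at 17.7 to 89.5 CPM with a Foxp3 UMI and at 369 to 1085 without, and fell by 3.65 ± 0.23 on the log2 scale (adjusted p = 4.5e-14, edgeR quasi-likelihood test with Benjamini-Hochberg adjustment). Tcf7 fell by 3.02 ± 0.21, Lef1, its partner in naive T cells, by 2.29 ± 0.21, Satb1 by 1.93 ± 0.15, S1pr1 by 1.48 ± 0.14 and Klf2 by 1.46 ± 0.14. In all, 7 of 11 naive and central memory genes and 3 of 4 genes of other helper programmes fell, against 9.45% of all genes. Helper genes such as Cd40lg, at 0 to 21.8 CPM with a Foxp3 UMI and 38.9 to 196 without, met the low-count filter through the cells without one. For such genes only a fall could be called, so the helper count is a description. Tnfsf11, Ramp3, Tdrp, St8sia1, Gtf2i, Klf3, Rnf19a, Rflnb and Ms4a4b were also among the 15 fallen genes with the lowest p. Of the interleukin-2 and STAT5 genes 5 rose and 5 fell of 14: Il2rb rose by 0.65 ± 0.14 (not at 1500 UMIs per cell or with no need for a Cd4 UMI) and Bcl2l1 by 0.81 ± 0.15, while Bcl2 fell by 2.5 ± 0.25, the death gene Bcl2l11 by 1.15 ± 0.14 and the feedback inhibitor Socs3 by 1.08 ± 0.16.

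**Figure D4:**
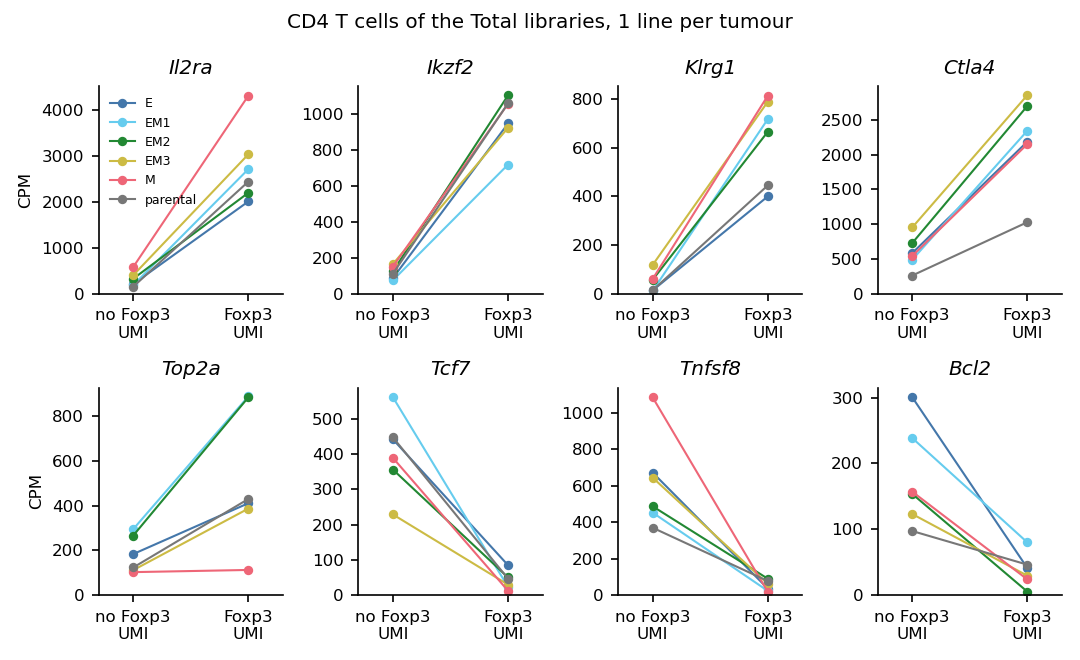
Level of 8 genes (CPM, linear axes from 0) in CD4 T cells of the Total libraries without (left) and with (right) a Foxp3 UMI, 1 line per tumour. Il2ra, Ikzf2, Klrg1 and Ctla4 rise and Tcf7, Tnfsf8 and Bcl2 fall in all 6 tumours, while the line of M for Top2a is nearly flat.

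Cell division genes rose in this comparison, 15 of 15 tested against 10.7% of all genes, with a median log2 fold change of 1.28. Without the tumour block 11 of the 15 rose, against 6.96% of all genes. Top2a, a topoisomerase of dividing cells, rose by 1.44 ± 0.16 and Mki67 by 1.16 ± 0.16. In M, Top2a was at 112 CPM with and 102 CPM without a Foxp3 UMI, against 889 and 295 in EM1. Depth moved with the arms, and at 1500 UMIs per cell only 3 of these genes could be tested and 1 rose. Myeloid markers moved the other way, with 6 of 11 macrophage genes, among them Lyz2 and Apoe, lower in cells with a Foxp3 UMI, against 9.45% of all genes. The summed macrophage markers were at 707 to 4028 CPM in cells with a Foxp3 UMI against 958 to 5634 in cells without. The calls for Lyz2 and Apoe were lost without the tumour block and at 1500 UMIs per cell, and that for Lyz2 also with no need for a Cd4 UMI. The part of depth and of these transcripts in the result was not tested.

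Between tumours, the Foxp3+ cells of EM3 had the fewest genes 2-fold apart from E, and those of M and parental 4T1 the most. A gene was counted where log2((CPM + 10) ratio) to E was at least 1 in size and the gene had at least 100 CPM in either tumour. For EM3, 10 of 2781 genes (0.36%) were higher and 10 (0.36%) lower. For EM1 the counts were 19 (0.675%) and 37 (1.31%) of 2814, for EM2 22 (0.778%) and 42 (1.49%) of 2826, for M 67 (2.31%) and 91 (3.13%) of 2906, and for parental 4T1 80 (2.73%) and 106 (3.62%) of 2929. These counts move with depth: with all sums thinned to 123648 UMIs they became 94 and 111 for EM3, 105 and 119 for EM1, 102 and 142 for EM2, 151 and 193 for M and 132 and 163 for parental 4T1. M still had more genes than EM3 in both directions, and the ratio of its counts to those of EM3 fell. EM2 against EM1, captured together, gave 28 and 27 of 2791 genes, and 98 and 107 of 2944 after thinning. All 5 comparisons share E.

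By list, none of the 11 identity genes was 2-fold apart from E in M or in EM3, and of the tissue and effector genes none of 13 in M and 1 of 12, Il1r2 (lower), in EM3. With 2.31 and 3.13% of all genes past that fold in M and 0.36% each way in EM3, counts of 0 in lists of this size are near the background. Genes induced by interferon-gamma lay lower in M: 3 of 12 (3.13% of all genes), the GTPase genes Igtp and Gbp2 and the immunoproteasome subunit Psmb9, were 2-fold lower, and the median log2 ratio of the list was -0.51 against -0.04 for all genes. Igtp stood at 355, 350, 383, 291, 139 and 275 CPM in E, EM1, EM2, EM3, M and parental 4T1, and Psmb9 at 464, 415, 383, 456, 226 and 323 CPM. M was lowest for both, and its intervals (98.1 to 192 and 172 to 291) overlapped that of parental 4T1 for Igtp by a narrow margin and for Psmb9. In the Total libraries Psmb9 was again lower in M than in E, 224 against 471 CPM, and the list's median was -0.39, whereas Gbp2 was higher in M, 177 against 117 CPM. Parental 4T1 had a list median of -0.51 in the CD45 and -1.04 in the Total libraries, and EM3 of -0.03 and 0.24. The 5 type I interferon genes at the minimum, among them Isg15, Irf7, Bst2 and Zbp1, were all below E in both M and EM3, with list medians of -0.50 and -0.52 and none of the 5 reaching 2-fold.

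The Total libraries, a second set of cells from the same tumours, were used to see which differences between M and E recurred. By the gel-bead barcodes, the Total and CD45 libraries of a tumour shared a capture. Recurrence between them therefore cannot tell the tumour from the capture. Over all 3151 genes at 100 CPM or more in M or E in Total, 4.22% were at least 2-fold higher in M and 3.74% lower. No such share was counted for the sign alone. Of the 43 higher genes that reached 100 CPM in both kinds of library, 38 had the same sign in Total and 15 were again at least 2-fold higher. Of the 68 lower genes, 55 had the same sign and 24 were again at least 2-fold lower. None was 2-fold in the opposite direction. Of these 24 genes, 10 were more abundant in non-T cells than in the Foxp3+ cells and were lower in the non-T cells of M than of E too, among them Inhba, Mmp19, Cd74, H2-Aa and Il1b, and their source was not tested. The other 14, at or above the non-T level in E, were Gimap4, Ifi27l2a, Samhd1, Gramd3, Trib2, Lrig1, Ctsw, Tmem64, Psmb9, Tubb5, Vamp1, Kbtbd11, Xpo1 and Baz2a. All of these but Tmem64 and Tubb5 were lower in the non-T cells of M than of E as well, with log2 ratios there of -1.60 for Samhd1, -0.97 for Psmb9, -0.92 for Kbtbd11 and -0.84 for Gimap4, against -1.23, -1.01, -1.20 and -1.74 in the Foxp3+ cells. For EM3 over E, 2 of 7 higher genes, Hspa1a and Lyz2, and 2 of 6 lower genes, Trib2 and Ifi27l2a, were 2-fold apart in both libraries. Over all 2966 genes compared in Total, 1.48% were at least 2-fold higher in EM3 and 1.42% lower. Hspa1a was more abundant in the non-T cells of EM3 than in its Foxp3+ cells, 399 against 127 CPM. It was higher in the non-T cells of EM3 than of E too, with a log2 ratio of 1.66 against 1.84 in the Foxp3+ cells, and its source was not tested. Lyz2 is a myeloid gene, and the summed macrophage markers were highest in EM3 (6305 CPM against 4857 in E), whose part in the Lyz2 value was not tested.

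Genes of hypoxia signalling and of metal binding were among the 15 higher in M in both libraries, which were Epas1, Mt2, Npnt, Ky, Gpr55, Hs6st1, Polg, Egln3, Mt1, Dtx4, Slc52a3, Sdc4, Lmna, Jdp2 and Mdfic. Of these, 4 (Mt1, Mt2, Dtx4 and Lmna) were more abundant in the non-T cells of M than in its Foxp3+ cells. The non-T cells of M also lay above those of E for Dtx4 (304 against 110 CPM) and Epas1 (38.7 against 15.1 CPM, log2 ratio 0.96). They lay above E by less on the log2 scale for Jdp2, Hs6st1, Mt2, Mdfic, Polg and Sdc4. For Npnt, Ky, Gpr55, Egln3, Mt1, Slc52a3 and Lmna they lay below E. Epas1, which encodes the hypoxia-inducible factor HIF-2 alpha, was at 141, 373, 217, 243, 889 and 445 CPM in E, EM1, EM2, EM3, M and parental 4T1 in the CD45 libraries, and at 112, 217, 79.5, 137, 508 and 107 CPM in the Total libraries. M was highest in both, and its CD45 interval (779 to 1010) overlapped no other. Egln3, a prolyl hydroxylase that marks such factors for degradation, was at 349, 530, 420, 435, 994 and 582 CPM, and at 218, 445, 383, 276, 714 and 522 in Total. Both were also highest in M among Cd44+ Cd4+ T cells, Epas1 at 1420 CPM against 367 to 494 elsewhere and Egln3 at 441 against 68.7 to 170, so that the higher level in M was not limited to Foxp3+ cells. Of 12 genes on the glycolysis and hypoxia list, 0 were 2-fold higher in M (2.31% of all genes) and 2, Slc2a3 and Pfkp, were lower (3.13% of all genes). The list's median log2 ratio of M over E was -0.39 against -0.04 for all genes.

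The metallothionein genes Mt1 and Mt2, whose products bind zinc and copper, were higher in M and parental 4T1. Mt1 was at 276, 184, 331, 282, 727 and 574 CPM in E, EM1, EM2, EM3, M and parental 4T1 in the CD45 libraries and at 188, 194, 308, 348, 850 and 952 in Total. Mt2 was at 92.9, 115, 169, 151, 407 and 275 CPM, and at 144, 137, 174, 228, 720 and 568 in Total. M and parental 4T1 were the 2 highest in both libraries for both genes. Both genes were more abundant in non-T cells than in Foxp3+ cells in E, M and parental 4T1. In the non-T cells Mt1 was at 1408 CPM in E, 1403 in M and 2223 in parental 4T1, and Mt2 at 357, 498 and 984 CPM. In parental 4T1 the non-T level thus lay above that of E along with the Foxp3+ level, with log2 ratios of 0.66 for Mt1 and 1.44 for Mt2. The log2 ratios in the non-T cells of M over E were -0.01 and 0.47. The part of such transcripts in the metallothionein values was not tested.

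Of the 4 genes Epas1, Egln3, Mt1 and Mt2, 3 matched an entry in the RefSeq promoter table (GRCm38.p6, the build named mm10). They were chosen after the values were seen and are shown because Mt1 and Mt2 moved together. Each run goes from 250 bases before to 50 after the start site, 5′ to 3′ on the gene's strand, with Mt1 at chr8:94178839-94179138 (+), Mt2 at chr8:94172368-94172667 (+) and Egln3 at chr12:54203825-54204124 (-). Capitals mark the core of the metal response element (TGCACNC or TGCGCNC) and of the hypoxia response element (ACGTG), on either strand, and none overlapped another.
Mt1: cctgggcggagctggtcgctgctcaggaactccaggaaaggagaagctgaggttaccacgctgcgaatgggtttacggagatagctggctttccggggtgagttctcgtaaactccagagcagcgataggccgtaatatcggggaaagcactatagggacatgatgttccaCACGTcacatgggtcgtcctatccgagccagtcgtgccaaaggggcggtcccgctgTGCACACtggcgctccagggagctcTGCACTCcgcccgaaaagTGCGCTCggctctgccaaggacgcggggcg
Mt2: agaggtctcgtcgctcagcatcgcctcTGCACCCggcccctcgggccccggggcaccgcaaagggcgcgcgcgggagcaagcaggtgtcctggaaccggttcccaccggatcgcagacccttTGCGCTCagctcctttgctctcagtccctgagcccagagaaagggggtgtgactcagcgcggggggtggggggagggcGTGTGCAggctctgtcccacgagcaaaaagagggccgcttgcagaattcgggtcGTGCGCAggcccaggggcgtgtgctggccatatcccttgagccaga
Egln3: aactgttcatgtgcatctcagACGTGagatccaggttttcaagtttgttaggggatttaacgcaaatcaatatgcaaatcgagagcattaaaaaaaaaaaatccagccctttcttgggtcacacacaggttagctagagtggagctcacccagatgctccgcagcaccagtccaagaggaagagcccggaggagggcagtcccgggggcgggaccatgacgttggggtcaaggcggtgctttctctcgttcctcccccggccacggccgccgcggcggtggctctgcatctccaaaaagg
Mt1 held 3 metal response cores and Mt2 held 4, against 1.97% of 32851 promoters with 3 or more and 25.7% with at least 1. Mt1 and Egln3 each held 1 hypoxia response core, which 19.6% of promoters hold. A match is a description of the letters and not evidence that a factor binds there.

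**Figure D5:**
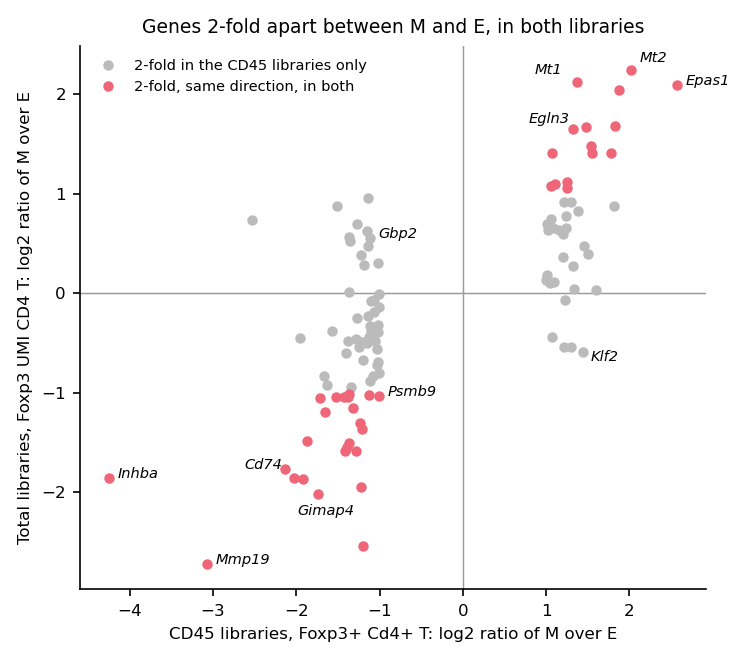
Log2 ratio of M over E in the Foxp3+ Cd4+ T cells of the CD45 libraries (horizontal axis) and in CD4 T cells with a Foxp3 UMI of the Total libraries (vertical axis), 1 point per gene at least 2-fold apart in the CD45 libraries and at 100 CPM or more in both. Epas1, Mt2, Mt1 and Egln3 lie at the upper right and Inhba, Mmp19 and Gimap4 at the lower left, while Klf2 and Gbp2 have opposite signs in the 2 libraries.

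A few further genes set single tumours apart, named by the largest difference of log2(CPM + 10) from the mean of the other 5 among genes whose interval overlapped no other tumour. The genes at 100 CPM or more in at least 1 tumour numbered 3367. Of these, M had 18 set apart on the high side and 8 on the low side, and the other tumours 1 to 6 on a side. E and EM3 were captured together, as were EM1 and EM2, so each of these was also compared with its capture partner. M and parental 4T1 had no such partner, and for them the tumour and the capture cannot be told apart. Interval widths differ as well, since UMI totals ran from 123648 to 662324. In M the highest were Epas1 (difference 1.72), Irs2 (1.56), an adaptor of insulin signalling, Laptm4b (1.33), Egln3 (1.11) and Odc1 (0.98), the first enzyme of polyamine synthesis, and the lowest Gimap4 (-1.48), a GTPase gene of lymphocyte survival, Gramd3 (-1.15), Tle5 (-1.04), Samhd1 (-0.88), which degrades deoxynucleotides, and Ptpn18 (-0.82). Samhd1 was at 985, 922, 769, 607, 414 and 639 CPM in E, EM1, EM2, EM3, M and parental 4T1. Parental 4T1 was highest for Tox, a factor of chronically stimulated T cells, at 558 CPM against 273 to 324, and for Klf3, Prkar1a, Akap12 and Il5. The Il5 value rests on 15 UMIs in 1 cell, and 30 of the 41 Akap12 UMIs came from 1 cell. Lag3 and Nfat5 were lowest there.

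In the other clones 1 to 6 genes a side stood apart by the same rule. EM1 was highest for Ms4a4b, for Il6st, the gp130 receptor chain (526 CPM against 207 to 350), and for Bcl2l11 (496 against 233 to 328 CPM), and lowest for Plxnd1, Fgl2, Pcyt1a, Pdcd1 and Ctla2a. EM2 was highest for Gbp3 (600 against 323 to 369 CPM) and Ccr8 and lowest for Penk. EM3 was highest for Isy1 and the phosphatase gene Dusp5 (2410 against 1638 to 2094 CPM) and lowest for Ccr6 (30.2 against 76.8 to 202 CPM). E was highest for Crebzf, Junb, an AP-1 subunit (2257 against 1410 to 1674 CPM), and Gna13, and lowest for Klf2, Dgat2 and Dusp10. The sign was opposite in the Total libraries for Klf2 and Dusp10 in E, Ms4a4b and Fgl2 in EM1, Ccr8 and Penk in EM2, and Prkar1a and Nfat5 in parental 4T1. Trib2, a pseudokinase gene, stood at 234, 292, 269, 83.0, 94.1 and 170 CPM in E, EM1, EM2, EM3, M and parental 4T1, and the interferon-inducible Ifi27l2a at 1719, 1018, 1505, 667, 516 and 1245 CPM. EM3 and M were the 2 lowest for both, and both genes were at least 2-fold lower than E in the Total libraries as well. Ifi27l2a was lower than in E in the non-T cells too, at 186 CPM in EM3 and 313 in M against 443 in E, whereas Trib2 did not exceed 3.01 CPM in the non-T cells of these 3 tumours.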

How the data were processed

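Single-cell libraries of 6 tumours were analysed, a Total and a CD45 library each. The authors deposited unnormalised UMI counts of the cells they had kept, with their class and subtype of each cell and its mitochondrial percent, which the counts reproduced in all cells and which was not used further. Cell Ranger and mm10 are named in the submitters' processing notes, and their version is not given in the sources used here. Fixed-RNA and 3' v3.1 reagents are both named per the labels' protocols. Library totals ran from 28083101 to 122055131 UMIs. Scrublet (scanpy 1.11.5) marked 3790 of 115612 cells (3.28%) as likely doublets, which were left out. UMIs were summed per tumour and subtype and given as CPM; ratios used a pseudocount of 10 CPM and a minimum of 100 CPM. Intervals are 95% exact Poisson for levels and Clopper-Pearson for shares, and those of differences of shares and of ratios combine these. In the Total libraries, UMI sums with and without a Foxp3 UMI were tested with edgeR 4.0.16 (R 4.3.3; filterByExpr, TMM, quasi-likelihood, tumour as a block, Benjamini-Hochberg over all genes); in counts simulated for this comparison on 5732 genes, 100% of 4-fold and 43.7% of 2-fold changes were recovered with 5 false calls of 126. Alternatives included pydeseq2 0.5.4. Members, gene lists and tests were chosen with earlier results of these data known. Named genes are members that define or carry a list; per tumour, up to 5 each way with an interval apart from all others and a level at or above the non-T cells; the 20 highest and 10 lowest against Cd44+ Cd4+ T cells; and the 15 lowest p each way in the Total test. A few of these genes are not reported here.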

Additional observations from a re-analysis of the deposited data

Results flagged for a closer look

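The rise of 2 costimulatory receptors in cells with a Foxp3 UMI stood apart in parental 4T1 (Total libraries, 26 genes checked; chance marks about 1 in 20 groups). For Tnfrsf4 the log2 difference between cells with and without a Foxp3 UMI was 2.18 in parental 4T1 and 0.68 to 1.17 in the 5 clones, a gap of 0.675 of the whole range, past Dixon's critical value for 6 values. For Tnfrsf18, which encodes GITR, it was 1.60 against 0.63 to 0.89, a gap of 0.735. The level in cells without a Foxp3 UMI was the lowest of the 6 tumours for both genes, 253 CPM for Tnfrsf4 and 318 CPM for Tnfrsf18, and parental 4T1 had 30 cells with a Foxp3 UMI.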

How the results depend on the processing

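Keeping doublets, cells with at least 650 genes, a pseudocount of 1, TMM totals (67 and 91 genes for M over E became 60 and 95) and equal weight per cell kept the shares and the counts of genes, for M and EM3 over E, within 1.5 times. The share difference M minus E was 9.47 points with cells lacking a Foxp3 UMI not counted, 4.43 in the Total libraries and 4.76 with thinned cells; EM3 minus E was 17.9, 17.0 and 16. Genes higher and lower in M than in E were 29 and 34 at a pseudocount of 50, 136 and 183 at a minimum of 50 CPM, 403 and 432 with no minimum, 133 higher in the Total libraries, and 151 and 193 with sums thinned to the lowest total, an alternative chosen after seeing the data. The counts for EM3 were 2 and 5, 24 and 39, 160 and 122, 44 and 42, and 94 and 111 in the same order, and 16 and 18 in cells with a Foxp3 UMI. Leaving out the 25% of cells richest in other-cell markers, also chosen after seeing the data, gave 74 and 107 for M and 14 and 11 for EM3. Leaving out cells with 3 or more such UMIs gave no value, since 0 to 15 cells per tumour remained.

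Without the replicate block the Total test called 407 genes higher and 292 lower, and thinned to 1500 UMIs 194 and 169; the tumour is the block because both arms come from 1 library. DESeq2 size factors and its Wald test gave 440 higher and 333 lower, of which 440 and 332 were also called by edgeR. Leaving out each tumour in turn gave 463 to 615 higher and 400 to 551 lower genes.

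The Total libraries reversed some single genes. Log2 ratios of M over E became -0.60 for Klf2, 0.56 for Gbp2 and 0.013 for Pecam1, and those of parental 4T1 over E became 0.64 for Fos, -0.63 for Ifit1 and 0.92 for Vegfa. Differences from the mean of the other 5 tumours became 0.52 for Klf2 and 0.13 for Dusp10 in E, -0.31 for Ms4a4b and 0.32 for Fgl2 in EM1, -0.24 for Ccr8 and 0.31 for Penk in EM2, and -0.20 for Prkar1a and 0.96 for Nfat5 in parental 4T1. With no lower limit on Cd4, Nrp1 (0.074), Il1r2 (0.057) and Il2rb (-0.055) changed sign. The cause was not tested. The Total library of parental 4T1 held 30 cells with a Foxp3 UMI, which limits the precision of its values.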
